A study of Mus musculus with 7 samples.

Results

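The expression of 10 cell cycle genes, 8 cyclins and the kinases Cdk1 and Cdk2, was measured in LLC1, a mouse Lewis lung carcinoma cell line, by sequencing of polyadenylated RNA. The genes were chosen by symbol, with earlier results of these data known, and all 10 were found among the 24419 genes of the count table. The Ddx54 knockdown group (3 libraries) carried an shRNA against Ddx54, which encodes a nucleolar DEAD-box RNA helicase. The wild-type group (4 libraries) was labelled WT DDX54, with no control construct named. Both groups were grown in DMEM with 10% FBS and came from a single line, and the labels do not say whether the replicates were grown separately. The p-values therefore describe only how these libraries vary, and that variation may be technical.

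Cyclins are the regulatory subunits that switch on cyclin-dependent kinases. D-type cyclins pair with Cdk4 and Cdk6 in G1 and respond to growth factors, E-type cyclins pair with Cdk2 at the entry into S phase, cyclin A2 pairs with Cdk2 and then Cdk1 through S and G2, and B-type cyclins pair with Cdk1 to drive mitosis. In dividing cells the transcripts of cyclins E, A and B and of Cdk1 rise and fall with the cycle, whereas those of D cyclins vary less. In a bulk RNA sample, a larger share of cells in one phase and more transcript in each cell cannot be told apart.

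In knockdown, 6 of the 10 transcripts rose: both E cyclins, cyclin A2, cyclin B1, Cdk1 and Cdk2. None fell, and the other 4, the D cyclins and cyclin B2, did not pass the test. All 10 genes passed the filter on low counts. A gene was called when its adjusted p was under 0.05 in edgeR's quasi-likelihood test over the 11594 genes that passed, of which 14.1% were higher, 15.3% were lower and 29.4% were called in either direction. The median log2 fold change of the 10 genes was 0.51, against 0.001 for all tested genes. Log2 fold changes are knockdown over wild type, so positive values are higher in knockdown. Levels are in CPM, counts scaled to library size with TMM factors.

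**Figure D1:**
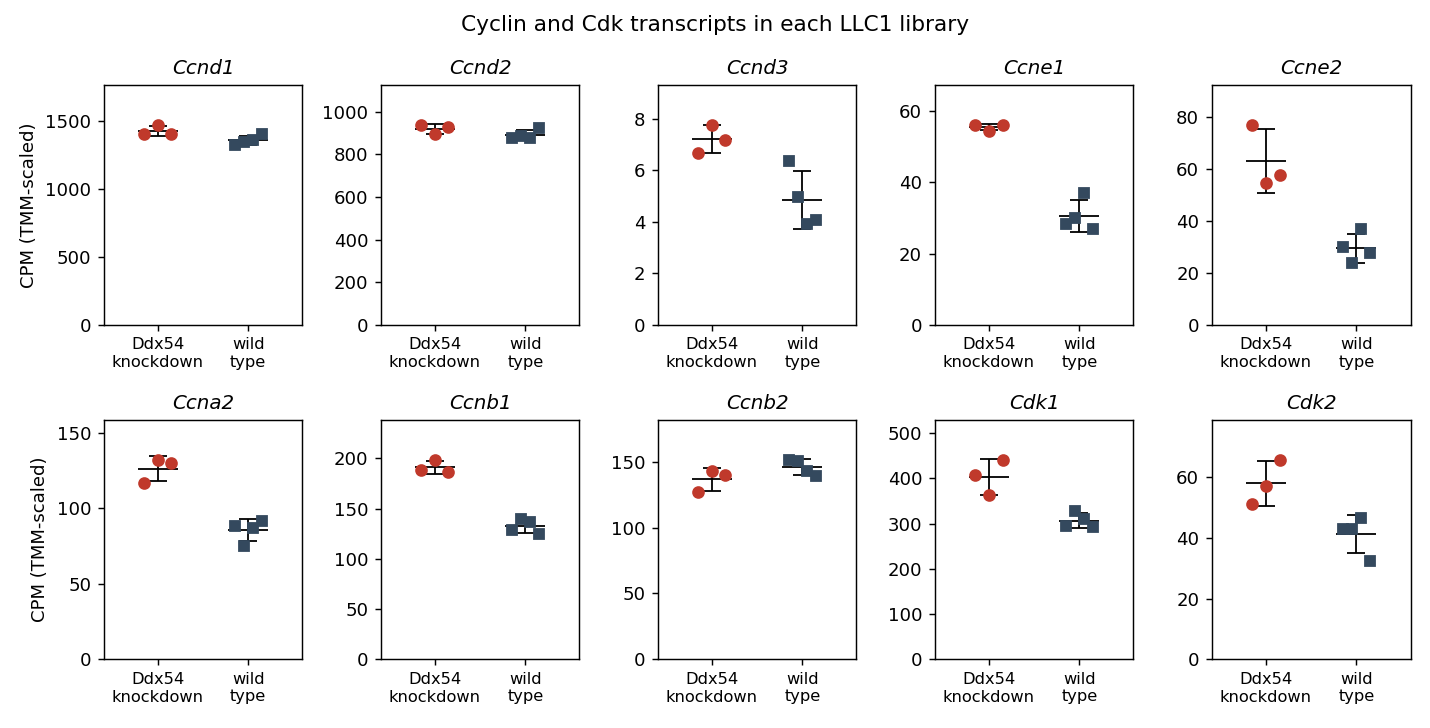
CPM of each of the 10 genes in each library, with 3 Ddx54 knockdown libraries (circles) and 4 wild-type libraries (squares); the wide bar is the mean and the capped line its SD, and each axis starts at 0. The groups separate clearly for Ccne1, Ccne2, Ccna2 and Ccnb1, where the lowest knockdown values are 54.4, 54.4, 117 and 186 CPM, and they overlap for Ccnd1, Ccnd2 and Ccnb2.

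Totals ranged from 14987324 to 18673395 counts per library. The pre-ribosomal RNA Rn45s took 7.96 to 9.07% of counts in knockdown and 10.7 to 12.5% in wild type. Ddx54 was at 45.9, 39.2 and 45.8 CPM in knockdown, against 80.4, 82.5, 78.6 and 83.2 CPM in wild type, so no library went against its label. Its log2 fold change was -0.90 (SE 0.096, adjusted p = 6.55e-09). LLC1 was checked on 6 epithelial markers, of which 3 could be tested. Of these, 2, Krt18 and Krt19, fell, against 15.3% lower among all tested genes. Krt18 averaged 132 ± 4.02 CPM in knockdown and 217 ± 4.77 CPM in wild type and Krt8 averaged 23.6 ± 7.61 and 20.3 ± 2.20 CPM, whereas Epcam averaged 0.043 and 0.014 CPM. Krt19 averaged 1.08 ± 0.54 CPM in knockdown and 4.39 ± 0.49 CPM in wild type. Summed levels of 8 leukocyte markers were 2.99 to 4.72 CPM in knockdown and 2.18 to 5.16 CPM in wild type, almost all of it Cd68, with Cd3e at 0 in every library. Those of 5 endothelial markers were 0.054 to 0.776 CPM in knockdown and 0.178 to 0.784 CPM in wild type, with Cdh5 and Tek at 0. Those of 6 fibroblast markers were 28.6 to 31.8 CPM in knockdown and 22.1 to 28.1 CPM in wild type, most of it Pdgfra (24.5 ± 1.23 and 18.99 ± 0.78 CPM, adjusted p = 0.058).

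The D-type cyclins start the G1 programme by binding Cdk4 and Cdk6, which phosphorylate the retinoblastoma protein. Ccnd1, encoding cyclin D1, was at 1406, 1469.95 and 1399.7 CPM in knockdown, against 1319, 1341, 1362 and 1402 CPM in wild type. The groups overlapped, and the log2 fold change was 0.072 (95% interval -0.041 to 0.18, adjusted p = 0.363). Ccnd2, encoding cyclin D2, was at 938, 893 and 930.1 CPM in knockdown, against 879, 885, 879 and 925 CPM in wild type. These ranges overlapped too, and the log2 fold change was 0.046 (95% interval -0.069 to 0.16, adjusted p = 0.601). Each had at least 13028 reads in every library, and increases above 0.18 log2 units lie outside both intervals.

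Ccnd3, encoding cyclin D3, was far scarcer, with 60 to 143 reads per library. It was at 6.68, 7.76 and 7.16 CPM in knockdown, against 6.38, 4.96, 3.92 and 4.09 CPM in wild type. All knockdown libraries lay above all wild-type libraries, though wild type 1 came close, and ranges did not overlap for 35.1% of all tested genes. The log2 fold change was 0.57 (SE 0.28, 95% interval 0.0093 to 1.13), and the adjusted p of 0.123 did not pass. Within a library, the log2 ratio of Ccnd1 to Ccnd3 averaged 7.62 ± 0.077 in knockdown and 8.14 ± 0.35 in wild type, and that of Ccnd2 to Ccnd3 averaged 6.99 ± 0.14 in knockdown and 7.54 ± 0.33 in wild type. The groups overlapped for both (exact permutation tests, two-sided, p = 0.0857 each, adjusted p = 0.2 over 7 ratios), so a change of Ccnd3 apart from the other D cyclins was not shown. The smallest p that this exact permutation test can give is 0.0286, or 0.2 after adjustment where a single ratio reaches it, so it could hardly pass. Per kilobase of exon, Ccnd1 supplied 75.4 ± 0.96% of the D cyclin transcripts in knockdown and 75.1 ± 0.28% in wild type, Ccnd2 24.4 ± 0.97% and 24.7 ± 0.25%, and Ccnd3 0.204 ± 0.013% and 0.144 ± 0.037%. With the longest coding transcript as length, a choice made after seeing the data, the Ccnd3 share was 0.643 ± 0.042% in knockdown and 0.454 ± 0.11% in wild type.

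The kinase partners of the D cyclins did not pass the test either. Cdk4 was at 146, 161 and 161 CPM in knockdown, against 141, 164, 160.1 and 152 CPM in wild type (log2 fold change 0.018, 95% interval -0.13 to 0.17, adjusted p = 0.893). The sign of this difference reversed without wild-type replicate 1 (-0.026), knockdown replicate 2 (-0.0060) or knockdown replicate 3 (-0.0070). Cdk6 was at 6.92, 5.81 and 7.09 CPM in knockdown, against 3.82, 4.41, 7.84 and 8.17 CPM in wild type (0.12, 95% interval -0.46 to 0.71, adjusted p = 0.795). Its sign reversed without wild-type replicate 1 (-0.049).

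The E-type cyclins, which activate Cdk2 at the start of S phase, rose most of the 10 genes. Ccne2 was at 76.8, 54.4 and 57.6 CPM in knockdown, against 29.8, 23.7, 36.8 and 27.4 CPM in wild type. Its lowest knockdown library exceeded its highest wild-type library by a wide margin, and knockdown 1 was the highest of all. The log2 fold change was 1.10 (SE 0.13, adjusted p = 1.22e-07), which made the knockdown mean 214% of the wild-type mean, and 257 of the tested genes had a larger log2 fold change. Without knockdown replicate 1 the log2 fold change was 0.93 (adjusted p = 3.33e-05). Ccne1 was at 56.1, 54.4 and 56.0 CPM in knockdown, against 28.2, 30.1, 37.1 and 26.8 CPM in wild type. The knockdown libraries were nearly equal, and none came near wild type 3, the highest of its group. Its log2 fold change was 0.86 (SE 0.12, adjusted p = 8.58e-07), or 182% of the wild-type mean. The log2 ratio of Ccne2 to Ccne1 within a library averaged 0.16 ± 0.25 in knockdown and -0.062 ± 0.19 in wild type, with overlapping ranges (exact permutation test, two-sided, p = 0.314, adjusted p = 0.55 over 7 ratios). The ratio was 0.45 in knockdown 1 and close to 0 in the other knockdown libraries, and the difference between groups was 0.23, against 0.081 without knockdown 1 and 0.13 without wild type 2. A difference between the changes of the E cyclins was not shown.

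Cdk2, the partner of cyclins E and A, was at 51.1, 57.1 and 65.7 CPM in knockdown, against 42.9, 43.1, 46.6 and 32.4 CPM in wild type. The groups did not overlap, but the gap between knockdown 1 and wild type 3 was small. The log2 fold change was 0.49 (SE 0.12, adjusted p = 0.0018). Cdk1, the mitotic kinase that binds cyclins A and B, was at 407, 362 and 442 CPM in knockdown, against 295, 327, 312 and 292 CPM in wild type. Every knockdown library was again above every wild-type library, and the log2 fold change was 0.40 (SE 0.067, adjusted p = 2.22e-05). This was the smallest change among the 6 called genes. The log2 ratio of Cdk1 to Cdk2 averaged 2.80 ± 0.17 in knockdown and 2.90 ± 0.19 in wild type (exact permutation test, two-sided, p = 0.514, adjusted p = 0.72). Their difference of -0.10 lay between -0.20 and -0.013 when single libraries were left out.

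Ccna2, encoding the S and G2 phase cyclin A2, was at 117, 132 and 129.9 CPM in knockdown, against 88.2, 74.9, 86.9 and 91.5 CPM in wild type. The ranges lay well apart. Its log2 fold change was 0.56 (SE 0.083, adjusted p = 2.25e-06), which put the knockdown mean at 148% of the wild-type mean. Ccnb1, encoding cyclin B1, was at 189, 199 and 186 CPM in knockdown, against 129, 140.1, 137 and 125 CPM in wild type. Within each group the libraries were close together, and its log2 fold change was 0.53 (SE 0.070, adjusted p = 4.25e-07). The log2 ratio of Ccna2 to Ccnb1 averaged -0.60 ± 0.087 in knockdown and -0.64 ± 0.19 in wild type, with overlapping ranges (exact permutation test, two-sided, p = 0.857, adjusted p = 0.857).

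Ccnb2, encoding the other mitotic B-type cyclin, did not pass the test. It was at 127, 143 and 139.9 CPM in knockdown, against 151, 150.3, 143 and 139 CPM in wild type. The ranges overlapped and the knockdown mean was 93.6% of the wild-type mean. The log2 fold change of Ccnb2 was -0.096 (SE 0.073, adjusted p = 0.357), and its 95% interval of -0.24 to 0.053 ended below the 95% interval of Ccnb1, which was 0.38 to 0.67. With 2123 to 2778 reads per library, Ccnb2 was counted about as deeply as Ccnb1 (2063 to 3661 reads).

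**Figure D2:**
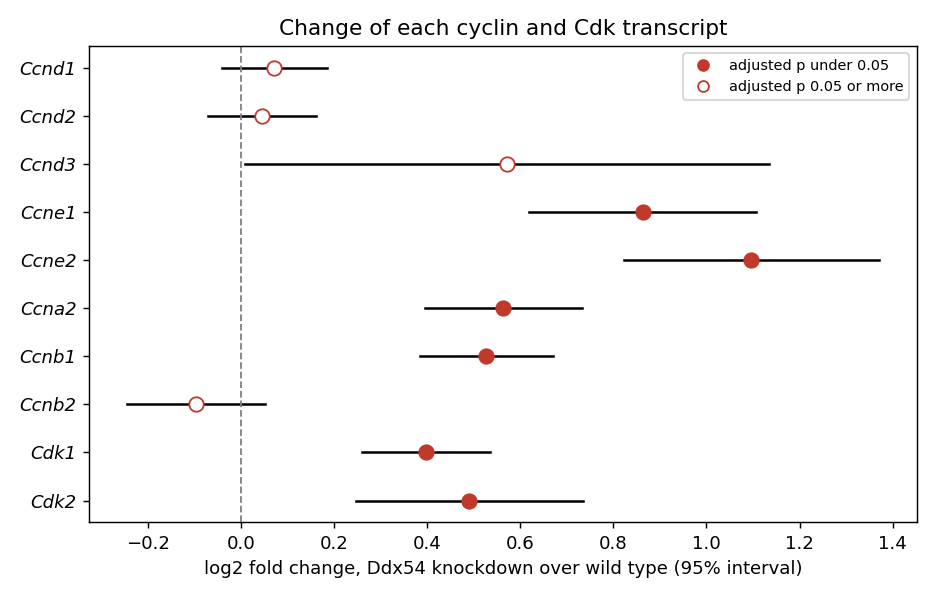
Log2 fold change of each of the 10 genes, Ddx54 knockdown over wild type, as points with 95% intervals; filled points passed the adjusted p threshold of 0.05. The E cyclins lie farthest right at 1.10 and 0.86, whereas Ccnb2, Ccnd1 and Ccnd2 have intervals that include 0.

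The difference between the B cyclins was tested directly as the ratio of both transcripts in each library. The log2 ratio of Ccnb1 to Ccnb2 was 0.57, 0.48 and 0.41 in knockdown, against -0.23, -0.10, -0.065 and -0.15 in wild type. Ccnb1 had a higher CPM than Ccnb2 in each of the 3 knockdown libraries and a lower one in each of the 4 wild-type libraries. The ratio differed between groups by 0.62 log2 units (exact permutation test, two-sided, p = 0.0286). This is the smallest p that 35 splits can give, and after adjustment over the 7 ratios examined it was 0.2, which did not pass. It was the only one of the 7 ratios whose groups did not overlap. Per kilobase of exon, Ccnb1 supplied 33.8 ± 1.26% of B cyclin transcripts in knockdown and 24.8 ± 0.92% in wild type (SD, n = 3 and 4), or 46.3 ± 1.39% and 35.9 ± 1.13% with the longest coding transcript as length. Leaving out any single library kept the difference between 0.58 and 0.66.

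**Figure D3:**
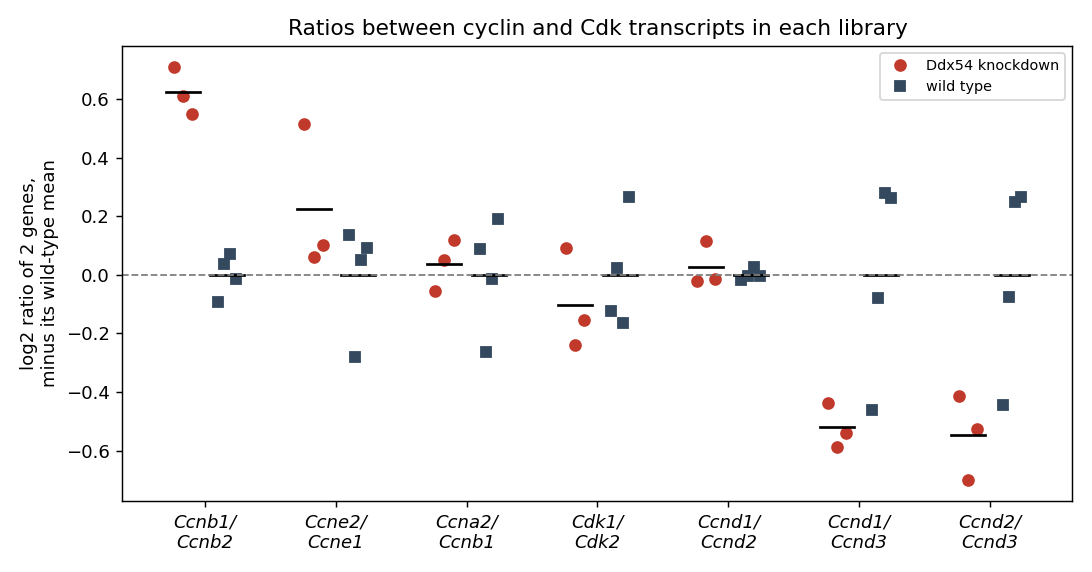
Log2 ratio of each of 7 pairs of cyclin or Cdk genes in each library, drawn as the distance from its wild-type mean, with 3 Ddx54 knockdown libraries (circles), 4 wild-type libraries (squares) and group means (bars). For Ccnb1 over Ccnb2 the knockdown mean is 0.62 above the wild-type mean with no overlap, and for the other 6 ratios the groups overlap.

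Late cell cycle promoters are known for paired elements, the cell cycle genes homology region (CHR), bound by the DREAM and MuvB-Myb-Foxm1 complexes, and CCAAT boxes, bound by NF-Y. The promoters of Ccnb1 and Cdk1, which rose, and of Ccnb2, which did not pass, were picked from 7 matched windows for a comparison letter by letter. Each is the 250 bases before the RefSeq start, in the direction of the gene (GRCm38.p6). Ccnb1 lies at chr13:100786487-100786736, Ccnb2 at chr9:70421555-70421804 and Cdk1 at chr10:69352913-69353162, all on the minus strand. The GENCODE models of Ccnb1 and Cdk1 start inside these windows. Capitals mark TTTGAA or TTTAAA (CHR), CCAAT or its reverse complement ATTGG, and the E2F motifs TTTCCCGC, TTTCGCGC, TTTGCCGC and TTTGGCGC, each sought on both strands.
Ccnb1: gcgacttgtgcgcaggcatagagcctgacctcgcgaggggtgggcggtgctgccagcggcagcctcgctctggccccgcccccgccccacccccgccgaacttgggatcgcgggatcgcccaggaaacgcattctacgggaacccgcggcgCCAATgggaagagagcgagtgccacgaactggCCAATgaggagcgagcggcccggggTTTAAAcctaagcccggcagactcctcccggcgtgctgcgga
Ccnb2: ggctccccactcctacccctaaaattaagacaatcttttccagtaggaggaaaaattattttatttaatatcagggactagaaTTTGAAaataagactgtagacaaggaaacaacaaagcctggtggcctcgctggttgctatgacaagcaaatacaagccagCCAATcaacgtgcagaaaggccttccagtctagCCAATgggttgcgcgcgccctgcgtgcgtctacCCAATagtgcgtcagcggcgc
Cdk1: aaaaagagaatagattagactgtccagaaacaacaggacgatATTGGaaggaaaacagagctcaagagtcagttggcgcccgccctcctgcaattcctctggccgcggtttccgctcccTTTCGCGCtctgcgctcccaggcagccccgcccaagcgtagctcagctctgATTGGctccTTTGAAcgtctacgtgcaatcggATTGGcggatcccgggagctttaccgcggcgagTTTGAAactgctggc

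The Ccnb1 window held 2 CCAAT boxes, which began 99 and 67 bases before the start, and TTTAAA at 42 bases. The Ccnb2 window held 3 CCAAT boxes, at 87, 54 and 21 bases, and TTTGAA at 167 bases, with a further TTTGAA from base 5 of the transcript. The Cdk1 window held 3 CCAAT boxes on the reverse strand, at 208, 80 and 48 bases, TTTGAA at 71 and 15 bases, and the E2F motif TTTCGCGC at 131 bases. Within the GENCODE models lay the Ccnb1 motifs at 67 and 42 bases and the Cdk1 TTTGAA at 15 bases. A CHR motif and a CCAAT box were both present in all of these 3 windows, and in none of the other windows matched to the 10 genes. Across 32851 promoter windows of the same length, 8.78% held both. Because the 3 windows were picked, their share cannot be weighed against that figure. Alone, the CHR letters were in 25.2% of windows, CCAAT in 33.8% and the E2F letters in 1.86%. Both kinds of motif were present for Ccnb1 and for Ccnb2, but their positions differed. The CHR letters came after the CCAAT boxes in the Ccnb1 window and before them in the Ccnb2 window. A match is a description of the sequence only, and the part of these motifs in expression was not tested. RefSeq promoters were matched for 6 of the 10 genes, with 2 windows for Ccnd3. Of the others matched, Ccne1 had TTTAAA at 15 bases, within its GENCODE model, which also starts inside the window. Cdk2 had CCAAT at 45 bases and TTTCCCGC on the reverse strand at 140 bases. The downstream window of Ccnd3 had CCAAT at 108 bases.

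Per length, Ccnd1 was the most abundant of the 10 transcripts. Levels were divided by the kilobases of exon that GENCODE M21 annotates for each gene on GRCm38. Ccnd1 (chromosome 7, 144929931 to 144939925) was at 303 ± 8.24 CPM per kilobase in knockdown and 288 ± 7.53 in wild type. Next came Ccnd2 (chromosome 6, 127125162 to 127152193), at 97.8 ± 2.54 in knockdown and 94.8 ± 2.35 in wild type, and Ccnb2 (chromosome 9, 70407692 to 70421547), at 89.2 ± 5.65 and 95.3 ± 3.94. These neighbours did not differ beyond their spread in wild type. Cdk1 (chromosome 10, 69335146 to 69352938) was at 81.8 ± 8.05 in knockdown, with an SD range that overlapped that of Ccnb2. In wild type Cdk1 was at 62.1 ± 3.32, below Ccnb2.

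Ccnb1 (chromosome 13, 100778650 to 100786570) was at 45.4 ± 1.55 CPM per kilobase in knockdown and 31.5 ± 1.65 in wild type, and Ccna2 (chromosome 3, 36564865 to 36572150) at 30.9 ± 2.06 and 20.9 ± 1.77. Ccne1 (chromosome 7, 38097984 to 38107534) was at 20.9 ± 0.36 in knockdown and 11.5 ± 1.71 in wild type. Ccne2 (chromosome 4, 11191351 to 11204779) was at 18.0 ± 3.48 and 8.42 ± 1.58, with SD ranges that overlapped those of Ccne1 in both groups. Within a library, Ccne1 supplied 53.95 ± 4.33% of the E cyclin transcripts per kilobase in knockdown and 57.8 ± 3.2% in wild type. Cdk2 (chromosome 10, 128697939 to 128705031) was at 9.32 ± 1.18 in knockdown and 6.63 ± 0.98 in wild type, which overlapped Ccne2 within the SDs in wild type. Ccnd3 (chromosome 17, 47505051 to 47599691) was lowest at 0.82 ± 0.062 and 0.55 ± 0.13. With the longest coding transcript in place of all exons, Ccnd3 and Ccnd1 kept their places in wild type, but Cdk2 moved from place 9 to place 7 and Ccnd2 came before Ccnb2.

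**Figure D4:**
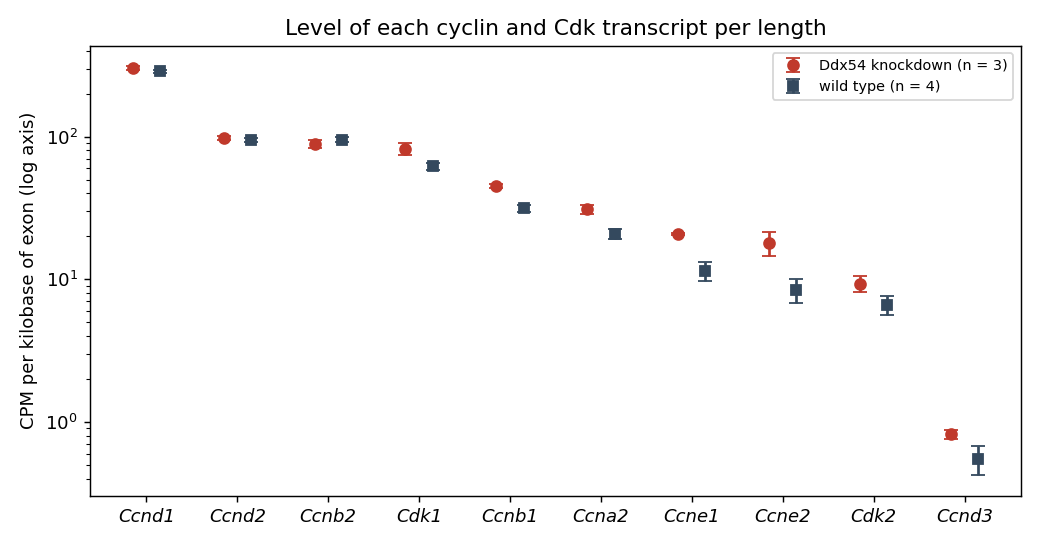
Mean level per kilobase of annotated exon (log axis) with SD, for Ddx54 knockdown (circles, n = 3) and wild type (squares, n = 4), ordered by the knockdown level. Ccnd1 is highest at 303 and 288 CPM per kilobase and Ccnd3 lowest at 0.82 and 0.55.

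Some genes share genomic positions with others, and the strand setting of the counting was not given. Ccna2 overlaps Exosc9 (429 to 549 reads per library) on the opposite strand, Ccne2 overlaps Ints8 (59 to 109 reads), Cdk2 overlaps Pmel (48 to 122 reads) and Ccnd3 overlaps Bysl (796 to 987 reads). On the opposite strand, Ccnd1 overlaps LTO1, and Ccnd2 overlaps Gm43126 and 9330179D12Rik (0 to 9 reads). LTO1 and Gm43126 were not found by symbol among the counted genes. Reads in these overlaps cannot be assigned with certainty. Ccnd3 itself had 60 to 143 reads, fewer than Bysl in every library. The pseudogenes Ccnb1-ps, Ccnb2-ps and Ccnd3-ps are annotated in GENCODE but were not found by symbol among the counted genes. Their part in the counts of Ccnb1, Ccnb2 and Ccnd3 was not tested.

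Cdks are also set by the kinases and phosphatases that act on them. Of the 3 Cdc25 phosphatases, which activate Cdks, 2 rose, against 14.1% higher among all tested genes. Cdc25a, which acts on Cdk2, was at 94.3, 83.3 and 98.4 CPM in knockdown, against 43.0, 47.5, 52.6 and 48.8 CPM in wild type (log2 fold change 0.94, SE 0.096, adjusted p = 2.26e-09). Its groups lay far apart. Cdc25b rose slightly (0.22, adjusted p = 0.028), and lost the call without wild-type replicate 3 (0.19, adjusted p = 0.09), knockdown replicate 1 (0.22, adjusted p = 0.078) or knockdown replicate 2 (0.18, adjusted p = 0.18). Cdc25c did not pass (0.33, adjusted p = 0.16). Of the inhibitory kinases, Wee1 did not pass (0.24, adjusted p = 0.144) and Pkmyt1, at 0.39 ± 0.28 CPM in knockdown and 0.38 ± 0.26 CPM in wild type, was too scarce to test.

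Of the 3 subunits of the Cdk-activating kinase, 2 fell (median log2 fold change -0.30), against 15.3% lower among all tested genes. Mnat1, its assembly factor, was at 156, 152 and 139 CPM in knockdown, against 216, 204, 196 and 213 CPM in wild type (-0.48, SE 0.070, adjusted p = 2.24e-06). Ccnh, its cyclin, was at 50.3, 48.7 and 45.7 CPM in knockdown, against 60.4, 55.4, 59.1 and 62.1 CPM in wild type (-0.30, SE 0.10, adjusted p = 0.025). The Ccnh call was lost without wild-type replicate 4 (-0.27, adjusted p = 0.062), knockdown replicate 2 (-0.30, adjusted p = 0.066) or knockdown replicate 3 (-0.26, adjusted p = 0.117). The kinase subunit Cdk7 did not pass (0.064, adjusted p = 0.752). Of the small Cks subunits that bind Cdks, Cks1b rose (0.24, adjusted p = 0.0021) and Cks2 did not pass (0.17, adjusted p = 0.603).

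Of the 8 Cdk inhibitors listed, 5 could be tested, with 1 higher (20%) and 1 lower (20%). Among all tested genes, 14.1% were higher and 15.3% lower. Cdkn1a, which encodes p21, was at 537, 494 and 493 CPM in knockdown, against 602, 610.2, 599.6 and 633 CPM in wild type (-0.27, SE 0.060, adjusted p = 7.08e-04). Its groups did not overlap. Cdkn2c, an inhibitor of Cdk4 and Cdk6, rose (0.51, adjusted p = 0.021), but lost the call without wild-type replicate 4 (0.39, adjusted p = 0.085), knockdown replicate 2 (0.43, adjusted p = 0.131) or knockdown replicate 3 (0.48, adjusted p = 0.078). Cdkn1b, encoding p27, did not pass (-0.051, adjusted p = 0.688). Cdkn2a and Cdkn2b had no read in any of the 7 libraries, where 3 reads, the limit that a count of 0 allows, would be 0.163 to 0.204 CPM.

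Cyclins are removed by ubiquitin ligases. Of the 19 genes of the anaphase-promoting complex (APC/C), the ubiquitin ligase that ends the life of cyclins A and B, and of its regulators, 7 rose, 1 fell and 11 did not pass, with a median log2 fold change of 0.23. That is 36.8% higher and 5.26% lower, against 14.1% higher and 15.3% lower among all tested genes. Its activator Cdc20 rose (0.39, SE 0.071, adjusted p = 6.16e-05), as did its inhibitor Fbxo5 (0.51, SE 0.089, adjusted p = 3.18e-05). The subunits Anapc11 (0.47, adjusted p = 2.93e-06) and Anapc15 (0.79, adjusted p = 0.0033) rose too. The subunit Anapc16 was the only one lower (-0.31, adjusted p = 0.033). Its groups overlapped, with 53.6 CPM in knockdown 3 against 51.1 CPM in wild type 1, and no alternative fit is given for it. A list of 10 genes joined subunits of SCF-type ligases, which target cyclins and Cdk inhibitors, with other factors linked to the removal of cyclins. Of these 10, 4 rose, 1 fell and 5 did not pass (median 0.30), again against 14.1% higher and 15.3% lower among all tested genes. Skp2, which directs the destruction of p27, was at 60.3, 62.1 and 68.3 CPM in knockdown, against 40.7, 32.0, 39.2 and 33.2 CPM in wild type (0.81, SE 0.11, adjusted p = 8.22e-07). Fbxw7, which targets cyclin E, rose by 0.49 (adjusted p = 1.48e-04), and Ccnf, or cyclin F, by 0.43 (adjusted p = 0.0048). Cul1, their scaffold, rose by 0.29 (adjusted p = 4.67e-04). Fbxo31 fell (-0.34, adjusted p = 0.041). This call was lost when wild type 1 (-0.28, p 0.124 after adjustment), wild type 2 (-0.34, p 0.058), wild type 4 (-0.36, p 0.052), knockdown 1 (-0.39, p 0.057) or knockdown 2 (-0.18, p 0.352) was left out of the edgeR fit.

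Among 20 transcription factors and pocket proteins of the cell cycle, 9 rose, none fell and 11 did not pass (median log2 fold change 0.28), against 14.1% higher and 15.3% lower among all tested genes. E2f1, an activator of G1 to S genes such as the E cyclins, was at 69.2, 56.6 and 65.6 CPM in knockdown, against 44.2, 44.7, 44.6 and 39.5 CPM in wild type (0.56, SE 0.11, adjusted p = 9.69e-05). E2f7, a repressor of such genes, rose by 1.41 (SE 0.14, adjusted p = 1.55e-09). Foxm1, an activator of mitotic genes, was at 84.4, 75.4 and 86.5 CPM in knockdown, against 61.8, 51.3, 61.5 and 57.7 CPM in wild type (0.50, SE 0.095, adjusted p = 1.08e-04). Mybl2, the Myb subunit that joins MuvB, rose (0.53, adjusted p = 0.032), a call lost when wild type 1 (0.41, p 0.108 after adjustment), wild type 3 (0.50, p 0.067), knockdown 2 (0.44, p 0.17) or knockdown 3 (0.51, p 0.098) was left out of the edgeR fit.

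Other cyclins and Cdks mostly serve transcription or other tasks, and their counts stand beside 14.1% higher and 15.3% lower among all tested genes. Of 18 other cyclins and cyclin partners, 15 could be tested, and 4 rose (26.7%), 2 fell (13.3%) and 9 did not pass (median -0.040). Ccnl2 (0.57, adjusted p = 8.71e-05) and Ccnl1 (0.42, adjusted p = 2.61e-04), cyclins linked to splicing, rose, and Ccng1, a p53 target, fell (-0.51, adjusted p = 1.83e-05). Ccnk, the partner of Cdk12, fell (-0.42, adjusted p = 0.0035; without knockdown replicate 3, -0.32, adjusted p = 0.055), whereas Cdk12 itself rose (0.43, adjusted p = 1.89e-04). Of 16 other Cdk genes, 4 rose (25%), 2 fell (12.5%) and 10 did not pass (median -0.057). Cdk14 fell (-0.52, adjusted p = 2.33e-06). Cdk8, a Mediator kinase, rose (0.50, adjusted p = 0.014), and lost the call without knockdown replicate 1 (0.46, adjusted p = 0.059). Cdkl2 rose (0.46, adjusted p = 0.017), a call lost when wild type 4 (0.39, p 0.057 after adjustment), knockdown 2 (0.44, p 0.069) or knockdown 3 (0.46, p 0.055) was left out of the edgeR fit.

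**Figure D5:**
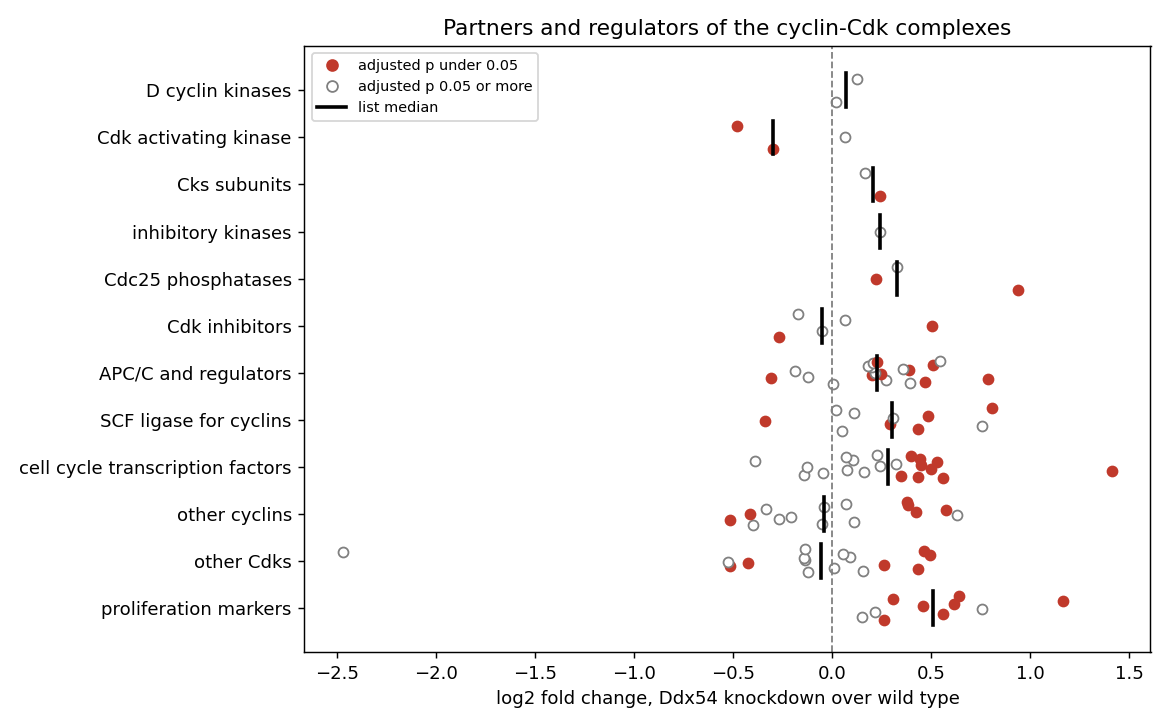
Log2 fold change, Ddx54 knockdown over wild type, of every tested gene in 12 lists of partners and regulators of the cyclin-Cdk complexes; filled points passed the adjusted p threshold of 0.05 and bars are list medians. Transcription factors of the cell cycle (median 0.28) and proliferation markers (median 0.51) lie mostly to the right of 0, and other cyclins and other Cdks (medians -0.040 and -0.057) lie on both sides.

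Most transcripts that mark dividing cells were also higher. Of 10 proliferation markers, 7 rose, none fell and 3 did not pass, with a median log2 fold change of 0.51, against 14.1% higher and 15.3% lower among all tested genes. Plk1, a mitotic kinase, was at 342, 332 and 336 CPM in knockdown, against 218, 221, 225 and 215 CPM in wild type (0.62, SE 0.062, adjusted p = 1.63e-09). Rrm2, a subunit of the ribonucleotide reductase that makes DNA precursors, was at 205, 216 and 214 CPM in knockdown, against 108, 81.6, 93.8 and 93.7 CPM in wild type (1.16, SE 0.078, adjusted p = 3.15e-13). Neither gene's groups overlapped. Birc5, encoding survivin, rose by 0.56 (adjusted p = 1.80e-08), and the S phase enzyme Tyms by 0.64 (adjusted p = 3.38e-04). Mki67 (0.76, adjusted p = 0.051), Bub1 (0.22, adjusted p = 0.062) and Aurkb (0.15, adjusted p = 0.341) did not pass. Myc, a growth-promoting transcription factor, went the other way, at 69.0, 80.1 and 75.8 CPM in knockdown, against 178, 126, 157 and 144 CPM in wild type (-1.01, SE 0.093, adjusted p = 3.31e-10). The part of these levels in the change of the cyclins was not tested.

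A search for genes nearest in pattern to each of the 10 covered 7836 tested genes with a mean of at least 10 CPM. Predicted and accession-like gene models were left out. Nearest genes had the smallest root mean square difference of centred log2 CPM over the 7 libraries. For Ccnb1 they were Snrpd1 (0.040 log2 units) and Tuba1b (0.042), and for Ccna2 they were Fam178a (0.050) and Ect2 (0.057). Cdk1 was nearest to Mfsd1 (0.024) and Ncbp1 (0.040), and Cdk2 to Nek2 (0.054) and Cmtm3 (0.060). Ccne1 was nearest to Nlk (0.076) and Fmr1 (0.10), whereas the closest to Ccne2, Zcchc7 and Slc25a10, were 0.17 and 0.19 away. Ccnd3 was nearest to Chek2 (0.10) and Tmtc3 (0.11). Ccnb2 was nearest to Pitpnb (0.022) and Cox5b (0.026), Ccnd1 to Paip1 (0.018) and Phb2 (0.025), and Ccnd2 to Cluh (0.024) and Fam120a (0.026). These distances include the difference between groups.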

How the data were processed

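Polyadenylated RNA of 7 LLC1 libraries was analysed from raw read counts per gene, as the authors deposited them in 1 table. The submitters' processing notes name Trimmomatic, STAR, HTSeq and the build mm10, without versions or roles. For the annotation and the strand setting, nothing is given in the labels. The table held 0 further sample columns. Tumour immune cells of the same series were not analysed here.

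Counts were tested with edgeR 4.0.16 (R 4.3.3): filterByExpr, TMM factors and the robust quasi-likelihood test without covariates, with Benjamini-Hochberg adjustment over all tested genes and a threshold of 0.05. Standard errors were taken as |log2 fold change|/√F, with 95% intervals from the t distribution, and both are approximate. Means are given with SD over 3 knockdown and 4 wild-type libraries. Ratios are differences of log2 CPM (prior count 1), tested by exact permutation over 35 splits. No 2 libraries of a group were alike within sampling noise (chi-square per degree of freedom 8.52 to 16.9).

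The 10 genes and the lists of regulators were chosen with earlier results of these data known. The named genes are the 10, Ddx54, Cdk4, Cdk6, in each list the up to 4 called genes with the largest change (or the 2 smallest p where fewer than 2 were called), and the 2 nearest in pattern. Cdc25c, Cdk7, Cdkn1b, Cul1, Anapc16, Cdkn2a, Cdkn2b, Mki67, Bub1, Aurkb and Myc were added after their values were seen, and so was the choice of which markers of other cell types and epithelium to name.

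Alternatives were a block on the replicate number, limma-voom (limma 3.58.1), DESeq2 1.42.0, upper-quartile or RLE factors, removal of Rn45s, no filter, a filter of 50 counts in 3 or more libraries, leaving out each library and, for ratios, a prior count of 0.25.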

Additional observations from a re-analysis of the deposited data

Results flagged for a closer look

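In the wild-type group of 4, the CPM of the 10 genes and of Ddx54, the total count and the 7 ratios were searched for a library far from the rest. Chance alone flags about 0.95 of 19 quantities, and 1 was found. Ccnd2 was at 924.6 CPM in wild type 4 and at 879 to 885 CPM in the other wild-type libraries. Leaving out wild type 4 gave Ccnd2 a log2 fold change of 0.064 (edgeR adjusted p = 0.449).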

How the results depend on the processing

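Of the 10 genes, 6 were called higher and none lower in knockdown under each of the 15 alternatives to the reported fit. The log2 fold change ranged from 0.93 to 1.22 for Ccne2, 0.81 to 0.97 for Ccne1, 0.51 to 0.62 for Ccna2, 0.50 to 0.55 for Ccnb1, 0.33 to 0.47 for Cdk1 and 0.39 to 0.57 for Cdk2. The highest adjusted p among them was 0.034, for Cdk2. That of Ccnb2 ranged from -0.13 to -0.045 and that of Ccnd3 from 0.48 to 0.73 (adjusted p from 0.062 to 0.295). Genes called over the whole table numbered 1222 to 1716 higher and 1409 to 1860 lower.

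With the replicate number as a block in edgeR, 1375 genes were called higher and 1487 lower, the same 6 of the 10 genes passed, and the calls of Ccnh (-0.27, adjusted p = 0.084), Cdkn2c (0.38, adjusted p = 0.124), Fbxo31 (-0.37, adjusted p = 0.051), Cdk8 (0.47, adjusted p = 0.052) and Cdkl2 (0.40, adjusted p = 0.071) were lost, and the difference of Cks2 reversed to -0.00014. Same-numbered libraries did not deviate together (r = -0.041, -0.021 and -0.011), so the numbers give no pairing. Leaving out 1 library moved Cdk4 between -0.026 and 0.064 (reversed in 3 fits, at -0.026, -0.0060 and -0.0070) and Cdk6 between -0.049 and 0.30, and neither was called. The ratio differences of Ccnd1 to Ccnd2 (-0.018 to 0.050) and Ccna2 to Ccnb1 (-0.050 to 0.10), likewise not called, changed sign when single libraries were left out. Leaving out a library left too few splits for an adjusted call of any ratio, so those are values with no test. Depth limits Ccnd3, which rests on 60 to 143 reads per library.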
